A study of Mus musculus with 8 samples.

Results

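The oligodendrocyte lineage was followed through 34 genes in the prefrontal cortex (PFC) of a mouse model of Fabry disease: Pdgfra as the gene of precursor cells, 4 lineage transcription factors, 3 genes of committed cells and 26 genes of myelin and mature oligodendrocytes. A gene belonged to this set if its symbol was on the list of names and carried by a probe in the array design. This rule uses no measured value, but the list of names was drawn up with earlier results of these data known. All 34 genes were on the array, with 46 probes, and 33 of them with 44 probes could be tested, out of 23638 genes tested in all. The exception was Myrf.

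PFC RNA came from 4 male α-Gal A(-/0) mice and from 4 wildtype males of the C57BL/6J strain, all 20 to 24 weeks old. The α-Gal A(-/0) mice carry a null allele of the X-linked gene Gla, which encodes the lysosomal enzyme α-galactosidase A, in all cells. No treatment is named for either genotype, and they were bred as separate inbred colonies, so that genotype and colony cannot be told apart. Each mouse was measured on 1 one-color array, whose 60-base DNA probes give the Cyanine-3 brightness of the matching RNA. Signals are given as log2 of the processed brightness after quantile normalization, fold changes as α-Gal A(-/0) minus wildtype on that log2 scale, and levels are compared only within a probe.

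Oligodendrocytes arise from precursor cells that divide and carry the receptor encoded by Pdgfra. Precursors become committed cells, which pass through a short premyelinating stage marked by Gpr17, Bcas1 and Enpp6, and then mature cells, which wrap axons in sheets of membrane. Myelin is rich in a few proteins and in galactolipids, and it speeds conduction and feeds the axon. The cortex holds less of it than the white matter beneath.

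Between 29897 and 38193 probes per array were well above background, the lowest number on α-Gal A(-/0) array 2 and the highest on wildtype array 1. The Gla probe read 17.13, 17.18, 17.17 and 17.13 in α-Gal A(-/0) mice, against 17.01, 17.17, 17.06 and 17.13 in wildtype mice. It therefore gives no check of the genotype labels, and its place relative to the disruption of the gene is not given in the sources used here. The 8 arrays shared a single slide and scan. The first row of the slide held α-Gal A(-/0) mouse 1 and wildtype mice 1 to 3, and the second row held the other 4 mice.

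The brightest probe of each of the 33 tested genes was well above background on all 8 arrays, including those of the defining genes Mbp, Mog, Mag, Pdgfra and Olig2. No gene of the set was called, that is, none had a limma p below 0.05 after adjustment, a call that 0.935% of all genes received (limma, Benjamini-Hochberg adjustment over all 34339 tested probes). The lowest adjusted p of a gene in the set was 0.296, and the methods' t-test called 0 of its genes too. The looser thresholds of the study's methods, 0.01 for the unadjusted p and 1.2 for the fold change, were passed by 0 of the 33 genes and by 3.52% of all genes. An unadjusted p under 0.05 was reached by 5 genes with higher signals in α-Gal A(-/0) mice (4.67% of all genes were so) and by 0 with lower ones (7.53% of all genes). In 4 genes every α-Gal A(-/0) mouse lay above every wildtype mouse, as in 3.29% of all genes, and in 0 genes every one lay below, as in 5.14% of all genes. The log2 fold change was above 0 in 19 of the 33 genes, against 42.6% of all genes, with a median of 0.06 in the set and -0.02 over all genes. The 95% intervals of the 33 genes reached at most 0.54 upwards and -0.42 downwards, and 28 of them held 0.

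**Figure D1:**
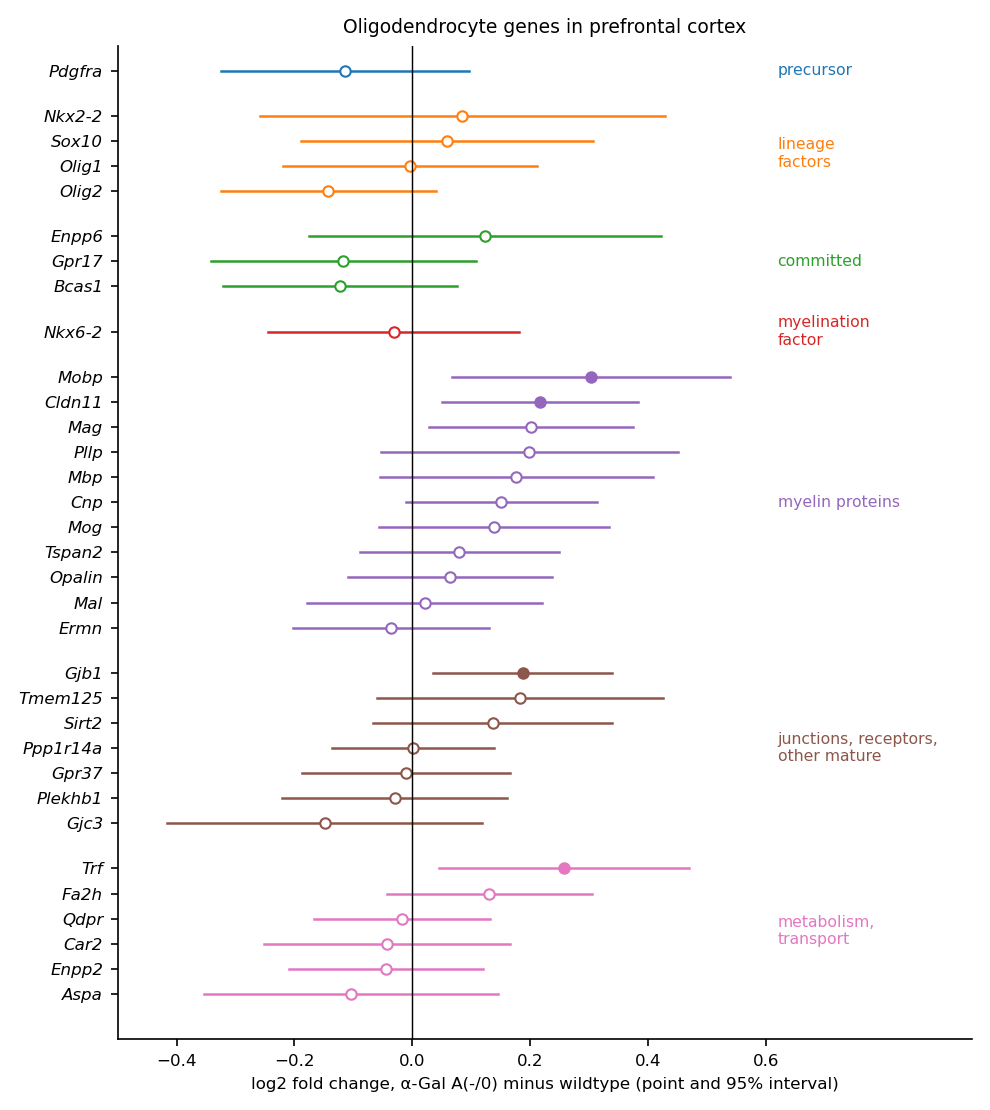
Log2 fold change of the 33 tested genes, α-Gal A(-/0) minus wildtype (horizontal axis), with points for the brightest probe of each gene, lines for its 95% interval from limma, and colors for the gene classes. Filled points mark the 4 genes whose genotypes do not overlap (Mobp, Cldn11, Gjb1 and Trf), and 10 of the 11 myelin proteins lie right of 0.

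The classes were compared next. The median log2 fold change was 0.00 for the 5 precursor and lineage genes, of which 2 lay above 0. It was -0.12 for the 3 committed genes, of which 1 lay above 0. In the 25 tested myelin and mature genes it was 0.08, with 16 above 0. Within this last class, the 11 structural myelin proteins had a median of 0.15 with 10 above 0, the 7 junction, receptor and other mature genes a median of 0.00 with 4 above 0, and the 6 genes of metabolism and transport a median of -0.03 with 2 above 0. None of these classes held a called gene in either direction. Myelin genes were set against precursor genes within each mouse. The mean deviation of the myelin and mature genes, less that of the precursor and lineage genes, was 0.04, 0.15, 0.14 and -0.12 in α-Gal A(-/0) mice, against -0.05, 0.02, -0.11 and -0.07 in wildtype mice. Of the α-Gal A(-/0) mice, 3 lay above all wildtype mice on this measure, and mouse 4 lay below them all.

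Among precursor and lineage genes, Pdgfra encodes the receptor for the platelet-derived growth factor that keeps precursors dividing. Its log2 signals were 10.15, 10.02, 10.07 and 10.40 in α-Gal A(-/0) mice, against 10.25, 10.33, 10.17 and 10.35 in wildtype mice. The genotypes overlapped, since α-Gal A(-/0) mouse 4 was the highest of all 8 and the other 3 were below every wildtype mouse. This gave a log2 fold change of -0.11, with a standard error of 0.09 and an adjusted p of 0.659 in limma.

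Olig1 and Olig2 encode paired helix-loop-helix factors that specify the lineage, and Sox10 and Nkx2-2 encode factors that drive differentiation. Olig2 signals were 9.07, 8.85, 9.07 and 9.18 in α-Gal A(-/0) mice, against 9.22, 9.12, 9.26 and 9.15 in wildtype mice. Again only α-Gal A(-/0) mouse 4 reached into the wildtype range, and the log2 fold change of -0.14 (error 0.08, SE) had an adjusted p of 0.524 in limma. Sox10 signals were 10.84, 10.78, 10.69 and 11.12 in α-Gal A(-/0) mice, against 10.70, 10.99, 10.74 and 10.77 in wildtype mice. The highest of the 8 was again α-Gal A(-/0) mouse 4, and the genotypes were mixed (log2 fold change 0.06, standard error 0.11). Nkx2-2, measured by 2 probes, read 8.01, 7.70, 7.72 and 8.11 on the brighter one in α-Gal A(-/0) mice, against 7.51, 7.72, 8.14 and 7.84 in wildtype mice. Its values spread more widely in wildtype mice (SD 0.26) than those of any other gene of the set in either genotype, by brightest probes, and its probes had log2 fold changes of 0.08 and -0.04. Olig1 was level between the genotypes, at 0.00 ± 0.09 (log2 fold change ± standard error).

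Mouse 4 of the α-Gal A(-/0) group stood apart in this class. It was the highest of its genotype in all 5 precursor and lineage genes, whose mean deviation from the 8-mouse mean was -0.01, -0.14, -0.11 and 0.22 in α-Gal A(-/0) mice, against -0.07, 0.04, 0.05 and 0.03 in wildtype mice. Without this mouse the class median was -0.10, and with all mice it was 0.00. The same mouse was highest of its genotype in 17 of the 33 genes.

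Of the genes of committed cells, Gpr17 encodes a receptor of the premyelinating stage. Its signals were 12.40, 12.64, 12.57 and 12.26 in α-Gal A(-/0) mice, against 12.45, 12.66, 12.55 and 12.68 in wildtype mice. The ranges overlapped, with α-Gal A(-/0) mouse 4 lowest (log2 fold change -0.12, standard error 0.10). Bcas1, which encodes a protein of newly forming myelin, read 12.63, 12.47, 12.88 and 12.68 in α-Gal A(-/0) mice, against 12.74, 12.84, 12.80 and 12.77 in wildtype mice. Here α-Gal A(-/0) mouse 3 was above all wildtype mice and the other 3 were below them (log2 fold change -0.12, standard error 0.09). Enpp6, a choline phosphodiesterase of newly formed oligodendrocytes, had log2 fold changes of 0.12 and 0.21 on its 2 probes, with standard errors of 0.13 and 0.26.

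**Figure D2:**
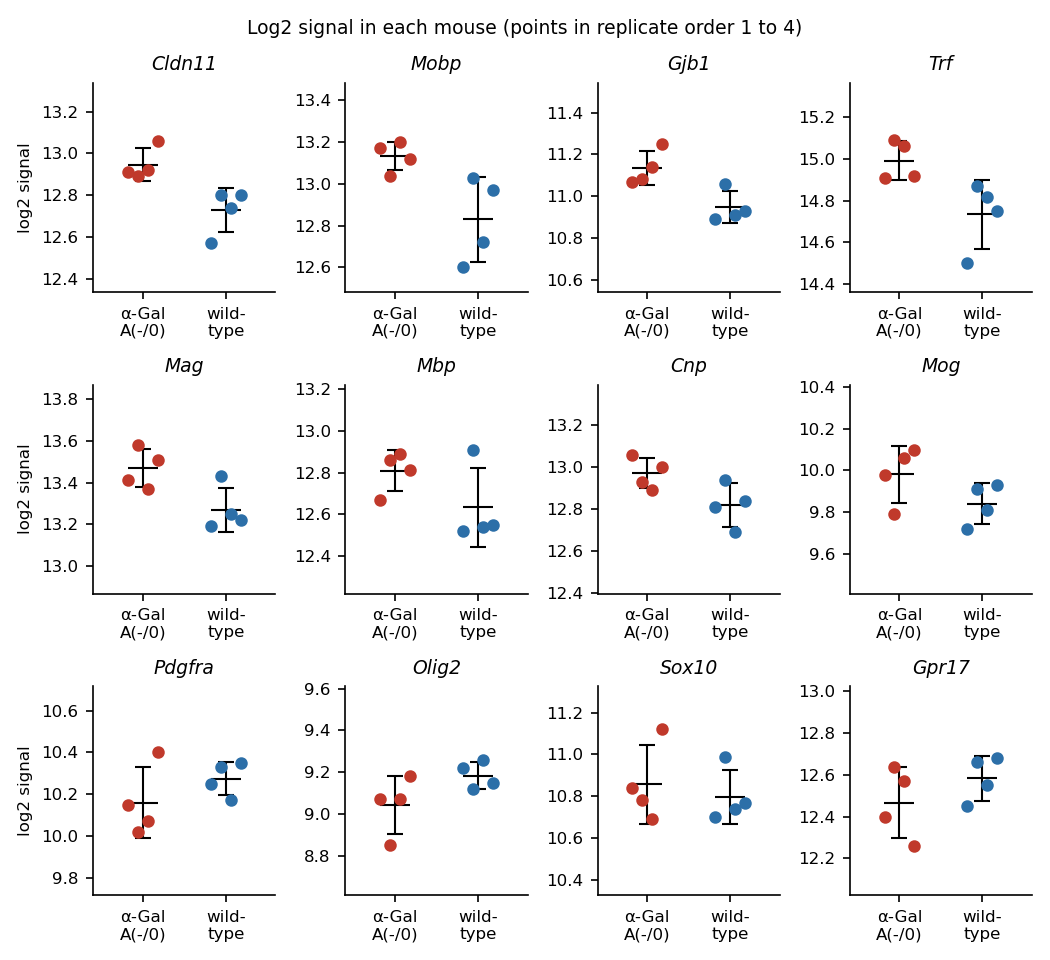
Log2 signal of 12 genes in each mouse (vertical axis, with the same span of 1 log2 unit in every panel), with 4 α-Gal A(-/0) mice in red and 4 wildtype mice in blue, each in replicate order, and black bars for the mean and SD. In Cldn11, Mobp, Gjb1 and Trf the 4 α-Gal A(-/0) points lie above all wildtype points, while in the other 8 genes the genotypes overlap.

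Myrf and Nkx6-2 encode transcription factors of the myelinating cell. Myrf switches on the myelin genes and was the only gene of the set that could not be tested. For that reason its probe is printed, 5′ to 3′ on the minus strand at chr19:10284933-10285125 (mm9, the build of the array design):

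Myrf probe: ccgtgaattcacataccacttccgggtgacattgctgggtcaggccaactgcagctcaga

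These 60 bases span 193 bases of the genome, so that the probe crosses an intron. It was well above background on 2 α-Gal A(-/0) arrays and 2 wildtype arrays. Its log2 signals were 4.38, 9.59, 3.63 and 4.54 in α-Gal A(-/0) mice, against 3.38, 4.78, 3.41 and 4.43 in wildtype mice. The single high value belongs to α-Gal A(-/0) mouse 2, whose array also had the fewest probes above background, and no level or fold change is drawn from this probe. Nkx6-2 read 8.06, 8.23, 7.89 and 7.89 in α-Gal A(-/0) mice, against 8.04, 8.17, 8.04 and 7.94 in wildtype mice. These ranges overlapped almost fully (log2 fold change -0.03, standard error 0.09).

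The structural proteins of myelin held the largest log2 fold change of the set. Mobp encodes a small basic protein of compact myelin, and 3 probes measured it. Its brightest probe read 13.17, 13.04, 13.20 and 13.12 in α-Gal A(-/0) mice, against 12.60, 13.03, 12.72 and 12.97 in wildtype mice. The genotypes did not overlap, but the lowest α-Gal A(-/0) mouse was within 0.02 of the highest wildtype mouse. α-Gal A(-/0) mice averaged 13.13 ± 0.07 and wildtype mice 12.83 ± 0.20 (SD, n = 4 each), a log2 fold change of 0.30 (95% interval 0.07 to 0.54, adjusted p = 0.305 with limma). The other probes of Mobp had log2 fold changes of 0.17 and -0.01 with overlapping genotypes, so the difference rested on 1 of 3 probes. The probe with 0.17 is shown because its letters can be read without a stop codon in 2 of 3 frames, and it lies on the plus strand at chr9:120077006-120077065 (mm9):

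Mobp probe: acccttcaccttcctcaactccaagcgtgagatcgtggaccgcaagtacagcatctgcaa

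Cldn11 encodes the claudin of the tight junctions that seal the myelin sheath along its windings. Its signals were 12.91, 12.89, 12.92 and 13.06 in α-Gal A(-/0) mice, against 12.57, 12.80, 12.74 and 12.80 in wildtype mice. Every α-Gal A(-/0) mouse lay above every wildtype mouse, with a gap of 0.09. α-Gal A(-/0) mice averaged 12.95 ± 0.08 and wildtype mice 12.73 ± 0.11 (SD, n = 4 each), and the log2 fold change of 0.22 (95% interval 0.05 to 0.38) had an adjusted p of 0.296 in limma.

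Mag encodes an adhesion protein on the innermost, axon-facing layer of the sheath. Its signals were 13.41, 13.58, 13.37 and 13.51 in α-Gal A(-/0) mice, against 13.19, 13.43, 13.25 and 13.22 in wildtype mice. The genotypes overlapped through wildtype mouse 2 alone, and the log2 fold change was 0.20 (95% interval 0.03 to 0.37, adjusted p = 0.354 with limma). Mbp encodes the basic protein that holds the inner faces of the membrane together. Its brightest probe read 12.67, 12.86, 12.89 and 12.81 in α-Gal A(-/0) mice, against 12.52, 12.91, 12.54 and 12.55 in wildtype mice. Wildtype mouse 2 was the highest of all 8 here, above every α-Gal A(-/0) mouse, and the other 3 wildtype mice were below them all. The log2 fold change of Mbp was 0.18 (standard error 0.10) on this probe, and 0.06 and 0.04 on the other 2 probes.

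Cnp encodes an enzyme that keeps cytoplasmic channels open in the sheath, and Mog encodes a protein of its outermost surface. Cnp read 13.06, 12.93, 12.89 and 13.00 in α-Gal A(-/0) mice, against 12.81, 12.94, 12.69 and 12.84 in wildtype mice. The overlap was again due to wildtype mouse 2 (log2 fold change 0.15, standard error 0.07). Mog read 9.98, 9.79, 10.06 and 10.10 in α-Gal A(-/0) mice, against 9.72, 9.91, 9.81 and 9.93 in wildtype mice. Here α-Gal A(-/0) mouse 2 fell inside the wildtype range and the other 3 were above it (log2 fold change 0.14, standard error 0.08). The remaining myelin proteins overlapped between genotypes, with log2 fold changes of 0.20 for Pllp, 0.08 for Tspan2, 0.06 for Opalin, 0.02 for Mal and -0.04 for Ermn.

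Since the lineage factor Sox10 acts on myelin genes by binding DNA motifs of the SOX family, the 250 bases before the annotated starts of the genes were searched for ACAAAG on both strands, the other strand being read as CTTTGT. Matches of these letters cannot overlap each other. RefSeq promoter windows on GRCm38.p6 were at hand for 24 of the 34 genes, with 31 windows. The motif was in 29% of these windows, in 7 of the 24 genes, and in 16.5% of all 32851 windows of the same length. Mobp had 6 matches, more than any other window, and 2 windows of all had at least 5. The windows of Mobp, Cnp and Mag are printed 5′ to 3′ on the strand of the gene, with matches in capitals, as examples of myelin protein genes with a match. Opalin and Tspan2 each had a window with 1 match as well. The printed windows of Mobp, Cnp and Mag lie, in this order, at chr9:120149492-120149741 (plus strand), chr11:100574689-100574938 (plus strand) and chr7:30914923-30915172 (minus strand).

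Mobp: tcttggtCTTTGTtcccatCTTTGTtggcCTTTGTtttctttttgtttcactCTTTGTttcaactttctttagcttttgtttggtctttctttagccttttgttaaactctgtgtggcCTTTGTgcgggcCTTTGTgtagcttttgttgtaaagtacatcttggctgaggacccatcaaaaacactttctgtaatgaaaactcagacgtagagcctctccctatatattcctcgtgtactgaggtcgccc

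Cnp: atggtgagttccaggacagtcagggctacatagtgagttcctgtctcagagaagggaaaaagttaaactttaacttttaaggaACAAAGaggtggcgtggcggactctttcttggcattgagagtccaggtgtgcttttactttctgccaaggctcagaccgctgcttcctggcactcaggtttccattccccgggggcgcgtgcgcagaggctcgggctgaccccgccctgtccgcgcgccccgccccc

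Mag: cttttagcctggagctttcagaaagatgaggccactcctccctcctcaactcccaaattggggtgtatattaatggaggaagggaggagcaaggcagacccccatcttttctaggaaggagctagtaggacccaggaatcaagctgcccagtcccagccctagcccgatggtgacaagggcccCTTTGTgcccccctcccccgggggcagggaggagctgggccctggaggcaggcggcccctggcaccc

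Matches are a description of letters and not of binding sites. Those of Mobp fill the part of its window farthest from the start, while Cnp and Mag have 1 match each. Of the other genes whose genotypes did not overlap, Cldn11 had 0 matches in its window. Gjb1 had windows with 1 match and windows with 0, and no window was at hand for Trf.

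Among the junction, receptor and other mature genes, Gjb1 encodes the gap junction protein connexin 32, which links layers of the sheath. Its signals were 11.07, 11.08, 11.14 and 11.25 in α-Gal A(-/0) mice, against 10.89, 11.06, 10.91 and 10.93 in wildtype mice. All α-Gal A(-/0) mice were above all wildtype mice, with wildtype mouse 2 just below α-Gal A(-/0) mouse 1. α-Gal A(-/0) mice averaged 11.14 ± 0.08 and wildtype mice 10.95 ± 0.08 (SD, n = 4 each), a log2 fold change of 0.19 (95% interval 0.03 to 0.34, adjusted p = 0.326 with limma). Gjc3, another connexin gene of these cells, had a log2 fold change of the other sign, -0.15 (standard error 0.12). Tmem125, which encodes a membrane protein, read 10.68, 10.74, 10.51 and 10.56 in α-Gal A(-/0) mice, against 10.36, 10.68, 10.22 and 10.51 in wildtype mice. The lowest values were those of wildtype mice 1 and 3, and the genotypes overlapped (log2 fold change 0.18, standard error 0.11). Sirt2, a deacetylase of the myelin sheath, had a log2 fold change of 0.14, and the receptor gene Gpr37, Plekhb1 and the phosphatase inhibitor gene Ppp1r14a lay between -0.03 and 0.00.

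Of the genes of metabolism and transport, Trf encodes transferrin, which carries iron and is made by oligodendrocytes in the brain. Its brighter probe read 14.91, 15.09, 15.06 and 14.92 in α-Gal A(-/0) mice, against 14.50, 14.87, 14.82 and 14.75 in wildtype mice. Its other probe read 13.74, 13.68, 13.81 and 13.87 in α-Gal A(-/0) mice, against 13.24, 13.63, 13.50 and 13.56 in wildtype mice. On both probes every α-Gal A(-/0) mouse was above every wildtype mouse, and wildtype mouse 1 was the lowest. The log2 fold changes were 0.26 and 0.29 (95% intervals 0.05 to 0.47 and 0.08 to 0.51, adjusted p = 0.33 and 0.276 with limma). Trf was the only gene of the set whose genotypes did not overlap on more than 1 probe, but Cldn11 and Gjb1 had a single tested probe each. Both Trf probes were read in the same mice. The second probe lies on the minus strand at chr9:103112826-103112885 (mm9) and is shown because the genotypes did not overlap on it either:

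Trf probe: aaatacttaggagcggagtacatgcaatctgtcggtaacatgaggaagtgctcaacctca

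Fa2h encodes the enzyme that hydroxylates the fatty acids of myelin galactolipids. Its signals were 11.18, 11.11, 10.97 and 11.17 in α-Gal A(-/0) mice, against 11.00, 11.11, 10.86 and 10.94 in wildtype mice. Both ranges were similar in width, and α-Gal A(-/0) mouse 3 lay among the wildtype mice (log2 fold change 0.13, standard error 0.08). Aspa, which encodes the enzyme that splits N-acetylaspartate in oligodendrocytes, had a log2 fold change of -0.10, the carbonic anhydrase gene Car2 one of -0.04, the autotaxin gene Enpp2 one of -0.04 and the dihydropteridine reductase gene Qdpr one of -0.02. None of these passed the test.

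**Figure D3:**
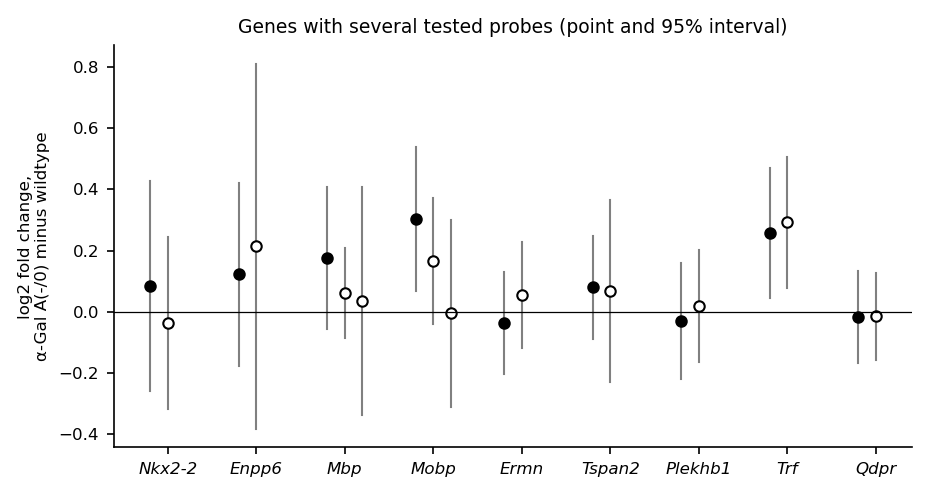
Log2 fold change, α-Gal A(-/0) minus wildtype (vertical axis), of each tested probe of the 9 genes with several, with lines for the 95% interval and the brightest probe filled. Both Trf probes lie above 0 with their intervals, whereas for Mobp only 1 of 3 intervals does.

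Among the 9 genes with several tested probes, all probes of 5 genes (Enpp6, Mbp, Qdpr, Trf and Tspan2) had the same sign. Probes of Ermn, Mobp, Nkx2-2 and Plekhb1 did not.

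Single mice shaped many of these values. Wildtype mouse 1 was the lowest of its genotype in 22 of the 33 genes and the highest in 0, while wildtype mouse 2 was the highest in 19. Over the 11 myelin proteins the mean deviation was 0.06, 0.02, 0.08 and 0.11 in α-Gal A(-/0) mice, against -0.17, 0.06, -0.11 and -0.06 in wildtype mice. Wildtype mouse 2 thus lay among the α-Gal A(-/0) mice and the other 3 below them. Without wildtype mouse 1 the log2 fold change of Mobp was 0.23 and that of Cldn11 0.17, and without wildtype mouse 2 they were 0.37 and 0.24. Without wildtype mouse 2, 2 genes passed the looser thresholds of the study, Mobp and Mbp (log2 fold change 0.27), at adjusted p = 0.217 and 0.206 with limma. By slide row, the median over the myelin proteins was 0.13 in the first row, with 1 α-Gal A(-/0) mouse, and 0.11 in the second, with 1 wildtype mouse. The median over the precursor and lineage genes was -0.10 in the first row and 0.01 in the second.

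**Figure D4:**
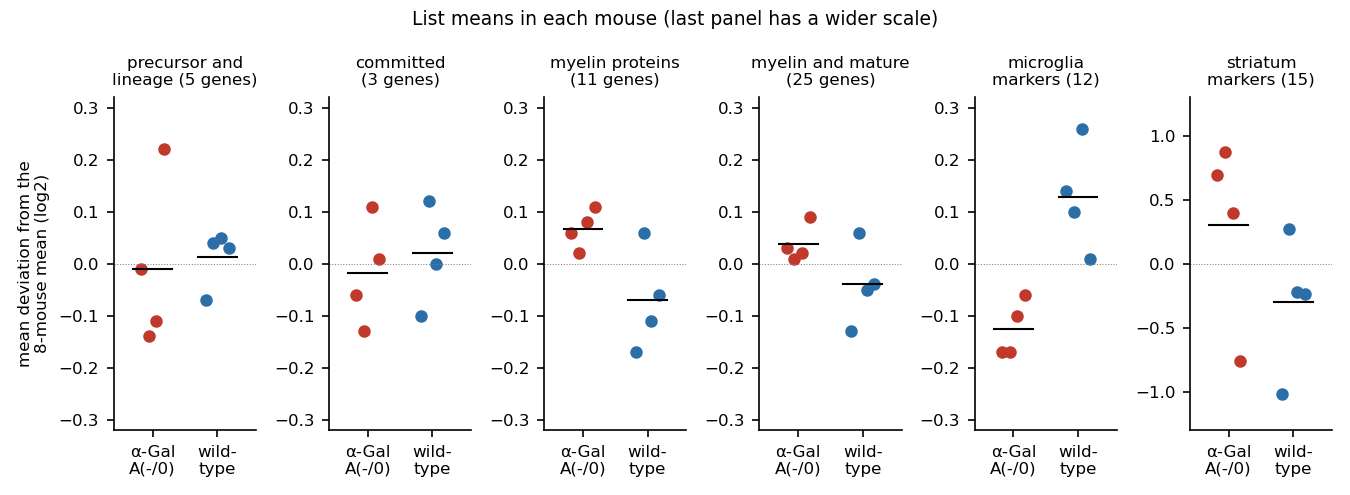
Mean deviation of 6 gene lists from the 8-mouse mean, in log2 units (vertical axis, wider in the last panel), for each α-Gal A(-/0) mouse in red and each wildtype mouse in blue, with black lines for the mean of each genotype. The 4 lists of oligodendrocyte genes overlap between genotypes, the microglia list does not, and the striatum list ranges from 0.87 in α-Gal A(-/0) mouse 2 to -1.02 in wildtype mouse 1.

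Further genes of the same cells were read from lists that hold none of the 34. Of 16 other precursor genes, 5 lay above 0, with a median log2 fold change of -0.10, and 1 fell at an adjusted p under 0.05. This was Neu4, which encodes a sialidase that removes sialic acid from glycolipids and glycoproteins. Neu4 read 5.79, 5.62, 5.77 and 5.84 in α-Gal A(-/0) mice, against 6.42, 6.34, 6.27 and 6.61 in wildtype mice, on a dim probe that was well above background on 3 and 4 arrays of these genotypes. The probe thus entered the test through its wildtype arrays alone. The 2 ranges lay far apart, and the log2 fold change was -0.66 (95% interval -0.86 to -0.46, adjusted p = 0.012 with limma). With normexp background correction it was -0.34 (adjusted p = 0.019), with the methods' t-test the adjusted p was 0.121, and without wildtype mouse 1 it was 0.0516. The next lowest p-values in this list were those of Susd5 and C1ql1, with log2 fold changes of -0.21 and -0.18 and adjusted p = 0.403 and 0.474.

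Of 10 other committed genes, 5 lay above 0, with a median of 0.03 and 0 called in either direction by their brightest probes. Cnksr3, a scaffold protein gene, and Itpr2, a calcium channel gene of newly formed oligodendrocytes, had log2 fold changes of -0.17 and -0.22, and the growth factor gene Bmp4 one of 0.29. Their adjusted p-values were 0.292, 0.319 and 0.37. Zfp488, which encodes a zinc finger factor of the lineage, had probes of opposite sign. Its brightest probe stood at 0.19 (adjusted p = 0.491 with limma), while its other probe fell by 1.48 (adjusted p = 0.0368 with limma), with 5.90, 5.03, 5.63 and 4.90 in α-Gal A(-/0) mice, against 6.51, 6.94, 6.72 and 7.20 in wildtype mice. This dim probe was well above background on 3 of 4 α-Gal A(-/0) arrays and 4 of 4 wildtype arrays, and the genotypes overlapped on neither probe. The dim probe, too, entered the test through its wildtype arrays alone. Of 38 other myelin and mature genes, 15 lay above 0, with a median of -0.02 and 0 called. The lowest p-values belonged to the ephrin gene Efnb3 (0.24, adjusted p = 0.233), the glycosyltransferase gene Galnt6 (-0.27, adjusted p = 0.27) and the fatty acid elongase gene Elovl1 (-0.23, adjusted p = 0.278). This longer list of the same stage thus had 15 of 38 genes above 0, against 16 of 25 myelin and mature genes of the set. Of the latter, the myelin proteins alone had 10 of 11 above 0. These differences were not tested.

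In bulk tissue, fewer cells of a type and less RNA per cell cannot be told apart, and markers of other cells were read beside the set. Of 14 astrocyte markers 1 lay above 0, with a median of -0.12, and of 15 neuron markers 3, with a median of -0.12, each with 0 called. Of 12 endothelial and mural markers 3 lay above 0 (median -0.14, 0 called). Of 12 microglia markers 1 lay above 0, with a median of -0.29, and 2 fell at an adjusted p under 0.05 with limma. Among them was Csf1r (-0.44 on its brightest probe, adjusted p = 0.012 with limma, and -0.37 and 0.59 on its others). The probe with 0.59 read 12.12 in α-Gal A(-/0) mouse 2. On that probe the other α-Gal A(-/0) mice read 9.98, 10.05 and 10.06, and wildtype mice 9.86 to 10.14. The 1 marker above 0 was Siglech, a lectin gene, with 0.06 on its brightest probe, but its other probes had -0.12 and -0.52, the last with an adjusted p of 0.0255 in limma. The microglia mean deviation was -0.17, -0.17, -0.10 and -0.06 in α-Gal A(-/0) mice, against 0.14, 0.10, 0.26 and 0.01 in wildtype mice. This list mean separated the genotypes without overlap, and those of the astrocyte markers and the neuron markers did so too, all lower in α-Gal A(-/0) mice. The astrocyte mean deviation was -0.10, -0.09, -0.05 and 0.00 in α-Gal A(-/0) mice, against 0.06, 0.06, 0.02 and 0.10 in wildtype mice. That of the other precursor genes was -0.04, -0.03, -0.02 and -0.09 in α-Gal A(-/0) mice, against 0.04, 0.12, -0.01 and 0.03 in wildtype mice. Mouse 3 of each genotype, at -0.02 and -0.01, hardly differed on this mean. It includes the called gene Neu4, which read 5.77 and 6.27 in these mice and entered the test through its wildtype arrays alone. Over the other genes of that list, α-Gal A(-/0) mouse 3 was on average not below wildtype mouse 3. The mean of the other precursor genes is therefore not counted as separating the genotypes. The class means of the 34 genes shown in the plot of list means overlapped. All 15 tested striatum markers lay above 0, with a median of 0.60 and 0 called. Their mean deviation was 0.69, 0.87, 0.40 and -0.76 in α-Gal A(-/0) mice, against -1.02, 0.27, -0.22 and -0.24 in wildtype mice. Of the mice with the lowest striatum levels, α-Gal A(-/0) mouse 4 was the highest of all 8 in the myelin proteins and in the precursor and lineage genes, and wildtype mouse 1 was the lowest of all 8 in the myelin proteins. Striatum and myelin protein means were both above 0 in α-Gal A(-/0) mice 1 to 3 and wildtype mouse 2. Both were below 0 in wildtype mice 1, 3 and 4. The part of striatal tissue in the myelin and precursor values was not tested. Of 6 Schwann cell markers 3 were tested, with a median of -0.04 and 0 called.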

How the data were processed

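RNA of the PFC of 8 mice was labeled with Cyanine-3 and hybridized to 8 Agilent SurePrint G3 mouse arrays, 1 per mouse. The deposited intensity values of each array were made by the authors' scanner software, Agilent Feature Extraction 10.7.3.1 (per the file headers and the submitters' processing notes), with spatial and multiplicative detrending and no subtraction of local background. A deposited table of log2 values, which the authors made by quantile normalization in GeneSpring, was not used, because 7 of its 8 columns lay closest to the scanner values of another sample. Probe positions refer to mm9, as in the scanner files.

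Repeated spots were averaged and log2 intensities quantile normalized. Controls and 81 unevenly hybridized probes were excluded. Of 55681 probes, 34339 entered the test, namely those flagged well above background in 4 of 4 mice of either genotype. The number of arrays limits the precision. The test was limma's (version 3.58.1, R 4.3.3, functions lmFit and eBayes), two-sided, and p-values were adjusted by Benjamini-Hochberg across these probes. The methods' Welch test served as an alternative. A gene was represented by its brightest tested probe. The limma and Welch tests with their adjustment were tried on simulated data, and the other steps were not. Python 3.11.15 with pandas 2.3.3, numpy 2.4.6 and matplotlib 3.10.9 made the tables and figures. Gene symbols are those of the array design. Promoter windows are from RefSeq.

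The 34 genes and all other lists were chosen with earlier results of these data known. All 34 are named. Values in every mouse are given for genes whose genotypes do not overlap, for the 2 with the lowest p in each class, and for Pdgfra, Olig2, Sox10, Gpr17, Myrf, Mbp, Mog, Mag and Cnp. Of the other oligodendrocyte lists the 3 genes with the lowest p are named, and of all lists the called genes, except 1 that is not reported here. Zfp488, Siglech and the printed promoters were chosen after their values were seen. Gpr62 and Drd1 were not found by these symbols. Alternatives were a 75th percentile shift, normexp with an offset of 50, other filters on dim probes, array weights, a replicate block, slide row as a block, robust variances with an intensity trend, the mean over the probes of a gene and each mouse left out in turn.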

Additional observations from a re-analysis of the deposited data

Results flagged for a closer look

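In each genotype the brightest probes of 33 genes, 4 class means and 2 untested probes were examined. Of these 78 groups of 4 mice, 7 had 1 value far from the other 3 by Dixon's test, where about 3.9 are marked by chance. In α-Gal A(-/0) mice, mouse 4 was lowest in Gjc3 (9.121, next 9.529), highest in Sirt2 (12.722, next 12.385) and highest in Enpp2 (14.473, next 14.252). Mouse 2 of that genotype was highest on the untested Myrf probe (9.592, next 4.541). In wildtype mice, mouse 2 was highest in Mbp (12.915, next 12.548), mouse 1 was lowest in Tspan2 (12.148, next 12.339) and mouse 3 was highest in Enpp2 (14.419, next 14.326). Of the 7 marked values, 3 are thus from α-Gal A(-/0) mouse 4.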

How the results depend on the processing

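Over the 33 tested genes and 18 alternatives, 0 genes were called in any setting. The mean over the probes of a gene had no test of its own. The lowest adjusted p of the gene's probes in the limma fit with all mice was used for it. Of 594 fold changes, 34 changed sign, in 11 genes whose log2 fold change was at most 0.08 in size, and the other 22 genes kept their sign throughout. Many of the 594 could not change. Other filters on dim probes, robust variances with an intensity trend, the methods' t-test and the replicate block leave fold changes as they are. The mean over probes does so for genes with a single tested probe. The medians of the myelin and mature genes (0.04 to 0.11) and of the committed genes (-0.16 to -0.04) kept their sign, while that of the precursor and lineage genes lay between -0.10 and 0.04. The looser thresholds of the study were met by 1 gene, Mobp, with an intensity trend and robust variances and with array weights, and by 0 to 2 genes with a mouse left out. The number of probes called, 304 with all mice, was 89 with the methods' t-test, 156 with a replicate block, 149 with slide row as a block, 492 with array weights and 186 to 264 with a mouse left out. The replicate numbers do not pair the mice (residual correlations -0.09, 0.14, 0.01 and 0.15), and the replicate block changed no call in the set. Left out in turn, single mice moved the log2 fold change between -0.0952 and 0.0351 in Olig1, -0.0293 and 0.122 in Sox10, -0.0119 and 0.197 in Nkx2-2, -0.103 and 0.012 in Nkx6-2, -0.0403 and 0.0626 in Mal, -0.0766 and 0.0215 in Ermn, -0.0573 and 0.032 in Gpr37, -0.0906 and 0.0169 in Plekhb1, -0.028 and 0.0436 in Ppp1r14a, -0.114 and 0.00632 in Car2, and -0.0527 and 0.00753 in Qdpr. Signs also turned with slide row as a block in Nkx6-2 (0.0188), Ermn (0.0205) and Gpr37 (0.0311), with array weights in Gpr37 (0.017), with the mean of all probes in Ermn (0.00918), with the 75th percentile shift in Mal (-0.014) and Ppp1r14a (-0.0217), and with normexp in Ppp1r14a (-0.00628). Neu4 was not tested where a probe had to be well above background on all 8 arrays. It kept its sign in the other 17 alternatives, some of which leave its fold change as it is, and lost its call in 2. The cause was not tested. No tested probe was saturated, so the setting without saturated probes was not run.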
